A study of Mus musculus with 6 samples.

Results

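Glutamate released at synapses is cleared mainly by astrocytes, and the 7 genes described here encode the main steps of that route: Slc1a2 and Slc1a3, the plasma membrane glutamate transporters; Glul, glutamine synthetase; Slc38a3, a transporter that exports glutamine; Glud1 and Got1, which interconvert glutamate and 2-oxoglutarate; and Slc7a11, which exchanges glutamate for cystine. They were chosen by name, as a list of genes of glutamate uptake, glutamine synthesis and exchange, out of 26264 genes with a value in 6 brain libraries. All 7 had a value and all 7 averaged 1 TPM or more, the filter for testing, which 13084 genes passed. TPM is the authors' unit, a level divided by transcript length and scaled to the same total in each library.

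Astrocytes take up glutamate together with sodium, turn part of it into glutamine with ammonia, and release the glutamine, from which neurons make glutamate again. This exchange is known as the glutamate-glutamine cycle. The remainder is oxidised in astrocyte mitochondria after Glud1 or an aminotransferase has turned it into 2-oxoglutarate. Slc1a2, Slc1a3 and Glul are also textbook markers of astrocytes, so in a mixed sample their level depends on how much of the RNA is from astrocytes.

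The 6 libraries are 3 from mice fed PLX5622 at 1200 ppm for 1 month and 3 from mice fed control diet for the same time, which the labels call biological replicates. PLX5622 inhibits Csf1r, a receptor that microglia need to survive. All mice, controls included, were Gfap-Cre; RiboTag: Cre driven by the astrocyte gene Gfap switches on a tagged ribosomal protein, and ribosome-bound mRNA was pulled down from brain homogenate with an antibody against the tag. Per the labels the captured RNA was from astrocytes with some neurons and oligodendrocytes, and the study asked if the drug alters cholesterol metabolism in these cells; the age of the mice is not given in the sources used here.

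Astrocyte markers were above those of other cell types, by more in summed TPM than in mean log2 level. Their mean log2(TPM + 1) averaged 10.06 on PLX5622 and 9.61 on control diet. That of the oligodendrocyte markers, the next highest list, averaged 7.77 and 7.85. The 12 astrocyte markers chosen for this comparison, none of them a member, summed to 60067 to 66173 TPM in the PLX5622 libraries and to 57985 to 77034 TPM in the control libraries. The 12 neuron markers summed to 1329 to 2004 TPM on PLX5622 and 2117 to 2540.0 TPM on control diet, and the 10 oligodendrocyte markers to 3244 to 4251 TPM and 3539 to 4641 TPM on the same diets. The 12 microglial markers summed to 28.6 to 56.4 TPM on PLX5622 and 37.0 to 139.0 TPM on control diet, and 4 of them (Cx3cr1, C1qb, C1qc and Ctss) were listed at 0 in at least 1 library. They did not follow the labels of 2 libraries. Csf1r stood at 0.811, 0.0208 and 2.05 TPM in the libraries labelled PLX5622 1, 2 and 3, against 4.33, 4.27 and 0.118 TPM in those labelled control 1, 2 and 3, and Tmem119, a microglial surface protein, at 0.617, 0.0761 and 1.48 TPM against 3.02, 2.03 and 0.151 TPM. The library labelled control 3 was thus as low as PLX5622 libraries in these genes, and that labelled PLX5622 3 was the highest of its diet. Libraries are therefore named by their labels, and member differences are also given without these 2.

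By label, 6 of the 7 members had higher mean levels on PLX5622, beside 61.1% of all genes tested with a difference above 0, and none passed the test. Glul had 15432, 18183 and 17423 TPM in the PLX5622 libraries 1, 2 and 3, against 8676, 13605 and 11338 TPM in the control libraries 1, 2 and 3. Every PLX5622 library lay above every control library, and the controls spread more among themselves. The means were 17013 ± 1420.4 TPM on PLX5622 and 11206 ± 2467 TPM on control diet (SD, n = 3), a 1.52-fold ratio. On the log2(TPM + 1) scale the difference was 0.62 ± 0.20 (SE; 95% interval 0.17 to 1.07; limma adjusted p = 0.205 over all 13084 genes). Glul took 1.54%, 1.82% and 1.74% of all TPM in the 3 PLX5622 libraries, and 0.868%, 1.36% and 1.13% in the 3 control libraries. In bulk RNA, a change in the number of astrocytes captured and one in the RNA per astrocyte cannot be told apart.

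Slc1a2, known as GLT-1, carries most glutamate uptake in the forebrain. It had 4483, 3893 and 5133 TPM in the PLX5622 libraries and 2740.2, 4207 and 2897 TPM in the control libraries, in the order of their labels. The diets overlapped, since the library labelled control 2 lay above that labelled PLX5622 2. The means were 4503 ± 620.5 TPM on PLX5622 and 3281 ± 805 TPM on control diet (SD, n = 3), with a log2 difference of 0.47 ± 0.20 (SE; limma adjusted p = 0.209).

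Slc1a3, known as GLAST, is the transporter of Bergmann glia and of developing astrocytes. It had 1822, 2044 and 2266 TPM in the PLX5622 libraries and 877, 1609.7 and 1373 TPM in the control libraries. All PLX5622 libraries lay above all controls, and the library labelled control 1 was the lowest by a wide margin. Its log2 difference was the largest of the members, 0.71 ± 0.22 (SE; 95% interval 0.22 to 1.19; limma adjusted p = 0.205). Within each library Slc1a2 exceeded Slc1a3 by 1.90-fold to 3.12-fold. The ratio was 2.46, 1.90 and 2.27 on PLX5622 and 3.12, 2.61 and 2.11 on control diet, and the diets overlapped (log2 difference −0.23, exact two-sided permutation p = 0.4, n = 3, smallest possible p 0.1).

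**Figure D1:**
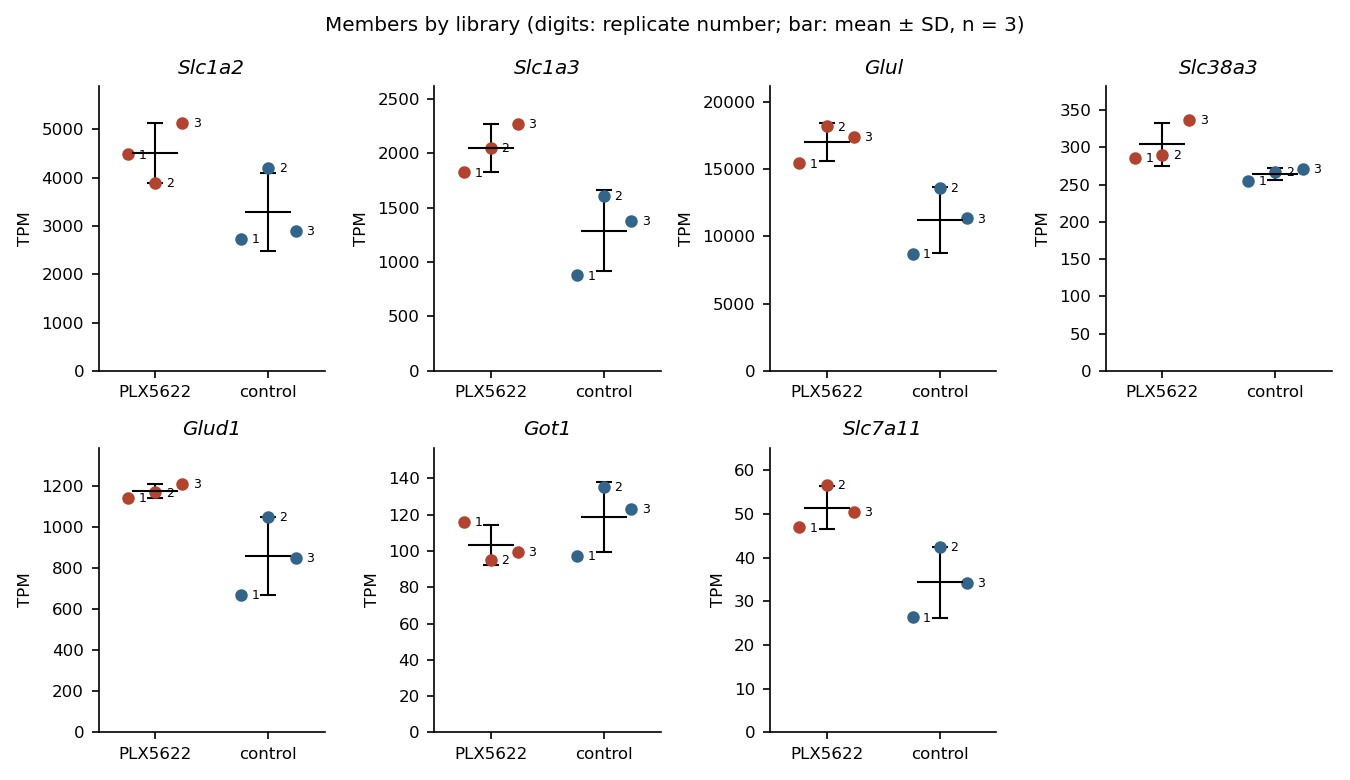
TPM of the 7 members in each of the 6 libraries, PLX5622 left and control right; digits give the replicate number, and the bar shows mean and SD (n = 3). In 5 panels all PLX5622 points lie above all control points, in Slc1a2 and Got1 they overlap, and control 1 is the lowest library in all panels but that of Got1.

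Among the enzymes that link glutamate to 2-oxoglutarate, Glud1, mitochondrial glutamate dehydrogenase, had 1145, 1170.3 and 1214 TPM in the PLX5622 libraries and 672, 1052 and 851 TPM in the control libraries. The PLX5622 libraries were close together, with a coefficient of variation of 2.94% against 22.2% in the controls, and all lay above the controls. The log2 difference was 0.48 ± 0.17 (SE; limma adjusted p = 0.205). Got1, the cytosolic aspartate aminotransferase, which neurons also use, had 116, 94.97 and 99.5 TPM in the PLX5622 libraries and 97.3, 135 and 123 TPM in the control libraries. It was the only member of the 7 with a lower mean on PLX5622, the diets overlapped, and the difference of −0.19 ± 0.15 had an interval that includes 0 (log2, SE; 95% interval −0.53 to 0.15; limma adjusted p = 0.437).

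Of the exchangers, Slc7a11, the cystine-glutamate antiporter known as xCT, was the lowest member per transcript length in every library. It had 46.9, 56.7 and 50.5 TPM in the PLX5622 libraries and 26.3, 42.5 and 34.2 TPM in the control libraries, and the diets did not overlap. Its log2 difference was 0.59 ± 0.17 (SE; 95% interval 0.20 to 0.98; limma adjusted p = 0.205). Slc38a3, the glutamine exporter SNAT3, had 285, 289.7 and 337 TPM in the PLX5622 libraries and 255, 267 and 271 TPM in the control libraries. The diets again did not overlap, though by a small margin, and the log2 difference was 0.20 ± 0.12 (SE; 95% interval −0.069 to 0.46; limma adjusted p = 0.314). Slc38a3 varied least of the 7 members, with its highest library at 337 TPM and its lowest at 255 TPM, and Slc1a3 most, by 2.58-fold.

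The members kept 1 order of level in all 6 libraries: Glul, Slc1a2, Slc1a3, Glud1, Slc38a3, Got1 and Slc7a11. Glul exceeded Slc1a2 by 3.17-fold to 4.67-fold within a library. Slc1a3 and Glud1 were the only neighbours in that order whose ranges over libraries overlapped, with Slc1a3 1.31-fold to 1.87-fold above Glud1 within each library. These are levels per transcript length. Without that division the order of the first pair and of the last pair turns: in the authors' deposited table the mean normalized count (baseMean) was 984896 for Slc1a2, the third highest of 20062 genes, and 830456 for Glul, the fourth. In the authors' deposited table baseMean was 8288 for Slc7a11 and 4826 for Got1, the lowest member on that scale. The exons of Slc1a2 cover 13133 bases and those of Glul 3323 bases in GENCODE M21. Together the 7 members took 2.33% to 2.65% of all TPM in the PLX5622 libraries and 1.33% to 2.09% in the control libraries.

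No member and no gene passed an adjusted p of 0.05 by limma (0% called in either direction; the smallest adjusted p was 0.116). At an unadjusted p under 0.05, 5 of the 7 members stood higher on PLX5622, beside 14.7% of all genes tested, and none stood lower, beside 8.02%; either direction took in 22.7% of the genes, or 2974. In 5 of the 7 members, Slc1a3, Glul, Slc38a3, Glud1 and Slc7a11, every PLX5622 library exceeded every control library, which held for 19.4% of all genes tested; the reverse held for none of the members and 9.39% of genes. The median log2 difference was 0.48 over the members and 0.089 over all genes tested.

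The calls depended on the library labelled control 2. Without it, limma called 5 members at an adjusted p under 0.05: Slc1a3 (0.89 on the log2 scale, adjusted p = 0.00383), Glul (0.77, adjusted p = 0.00412), Slc7a11 (0.75, adjusted p = 0.0042), Glud1 (0.64, adjusted p = 0.00469) and Slc1a2 (0.67, adjusted p = 0.0053). The same step called 2600 genes higher and 1154 lower among 13081. It left control 1 and control 3, the latter as low in microglial markers as PLX5622 libraries. Control 2 deviated with log transcript length in the direction of the PLX5622 libraries (r = 0.238 across genes). Control 1 and control 3 deviated in the opposite direction (−0.443 and −0.423). The part of transcript length in these calls was not tested. Leaving out any other single library called 0 of the members. Without the library labelled control 1 the difference was 0.45 for Slc1a3, 0.31 for Glud1 and −0.32 for Got1, against 0.71, 0.48 and −0.19 with all libraries (log2; limma adjusted p = 0.381, 0.388 and 0.382). Got1 differed by −0.086 without control 2, and Slc38a3 by 0.12 without PLX5622 3. In the heat map of deviations the library labelled control 2 lies between −0.085 and 0.29 from each member's own mean, and that labelled control 1 between −0.86 and −0.15 (log2).

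**Figure D2:**
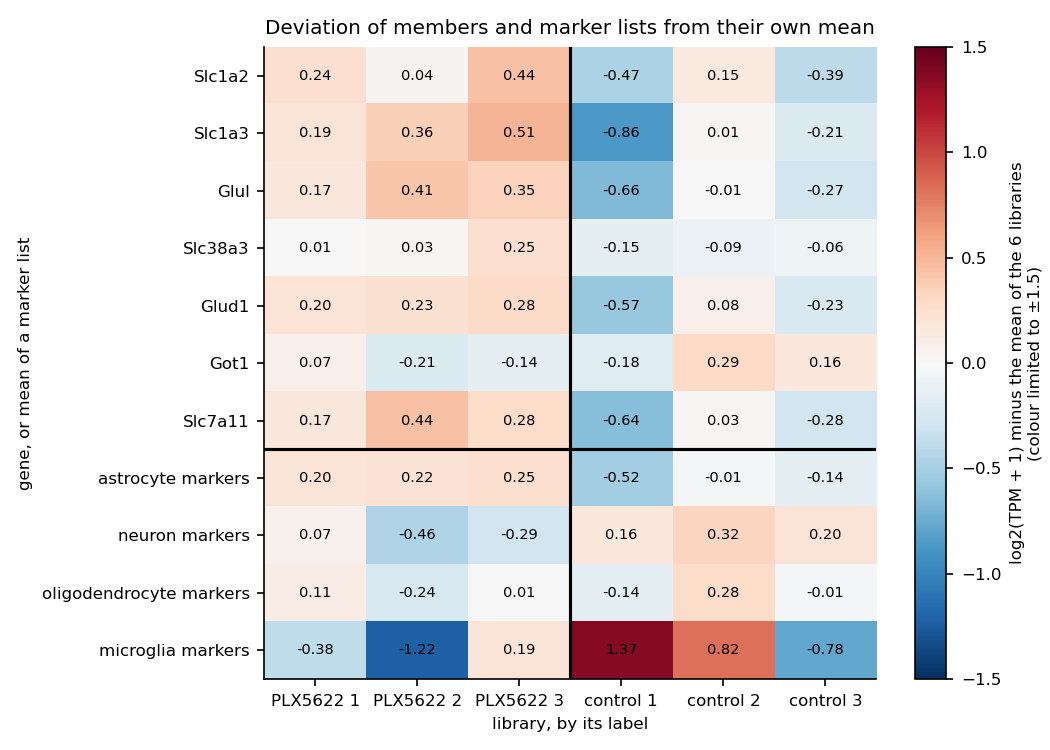
Deviation of each member, and of the mean of 4 marker lists, from its own mean over the 6 libraries, in log2(TPM + 1); red is above and blue below the mean, with PLX5622 libraries left and control libraries right of the black line. Members other than Slc38a3 and Got1 share the low values of control 1 and control 3 with the astrocyte markers, and Got1 has the signs of the neuron markers in 5 of 6 libraries.

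The mean log2 level of the astrocyte markers stood higher by label along with the members, while their summed TPM did not: it averaged 63956 ± 3379 TPM on PLX5622 and 66782 ± 9608 TPM on control diet (SD, n = 3), and was highest in the library labelled control 1. Of the 12 astrocyte markers, 11 had a positive difference by label, beside 61.1% of all genes tested. In 7 of the 12 every PLX5622 library lay above every control library, beside 19.4% of all genes tested. The median difference of the 12 was 0.45, and none was called. The mean log2 level of the list was 10.03, 10.05 and 10.09 in the PLX5622 libraries and 9.32, 9.82 and 9.70 in the control libraries. Of the 12 neuron markers, 1 was positive and 7 had every PLX5622 library below every control library, which held for 9.39% of all genes tested. Set against the mean of the astrocyte markers in the same library, the difference between diets was 0.030 for Slc1a2 (exact two-sided permutation p = 0.8), 0.033 for Glud1 (p = 0.6, exact), 0.14 for Slc7a11 (p = 0.3, exact), 0.18 for Glul (p = 0.2, exact) and 0.26 for Slc1a3 (p = 0.2, exact), all on the log2 scale with n = 3 a diet. For each of these 5 the diets overlapped. With Gfap and Apoe left out of the marker list, the diets no longer overlapped by label for Slc1a3 (0.23) and Glul (0.15). The exact two-sided permutation p was 0.1 for both, unadjusted and the smallest possible with n = 3. With PLX5622 3 and control 3 swapped between the diets, that list was not tested. That list gave 0.0022 for Slc1a2, 0.0056 for Glud1 and 0.12 for Slc7a11 (exact two-sided permutation p = 0.8, 0.9 and 0.3). With all 12 markers, the exact p of Slc1a3 and Glul was 0.4 after adjustment over the 10 measures. Glul relative to the markers lay between 3.88 and 4.10 on PLX5622 and between 3.77 and 3.91 on control diet.

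Slc38a3 and Got1 had lower means on PLX5622 relative to the astrocyte markers. Slc38a3 relative to them stood at −1.87, −1.87 and −1.69 on PLX5622 and at −1.32, −1.76 and −1.61 on control diet, a difference of −0.25 with overlap (exact p = 0.2). Got1 relative to them stood at −3.16, −3.47 and −3.44 on PLX5622 and at −2.70, −2.73 and −2.74 on control diet. All PLX5622 libraries lay below all controls, by 0.63 on average (log2, exact two-sided permutation p = 0.1, the smallest that 3 against 3 allows, and 0.4 after adjustment over the 10 such measures). The controls were within 0.05 of each other. The separation holds by label only: with PLX5622 3 and control 3 swapped between the diets, the diets overlap. Without both libraries the Got1 difference was −0.60 (log2, n = 2). Each of these 2 values is the gene's own difference less that of the astrocyte marker mean. Alone, Slc38a3 differed by 0.20 and Got1 by −0.19, the latter with overlap. The marker mean differed by 0.44 and separated the diets by itself. The neuron markers were lower by label, with a median difference of −0.55, and their part in the Got1 value was not tested.

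**Figure D3:**
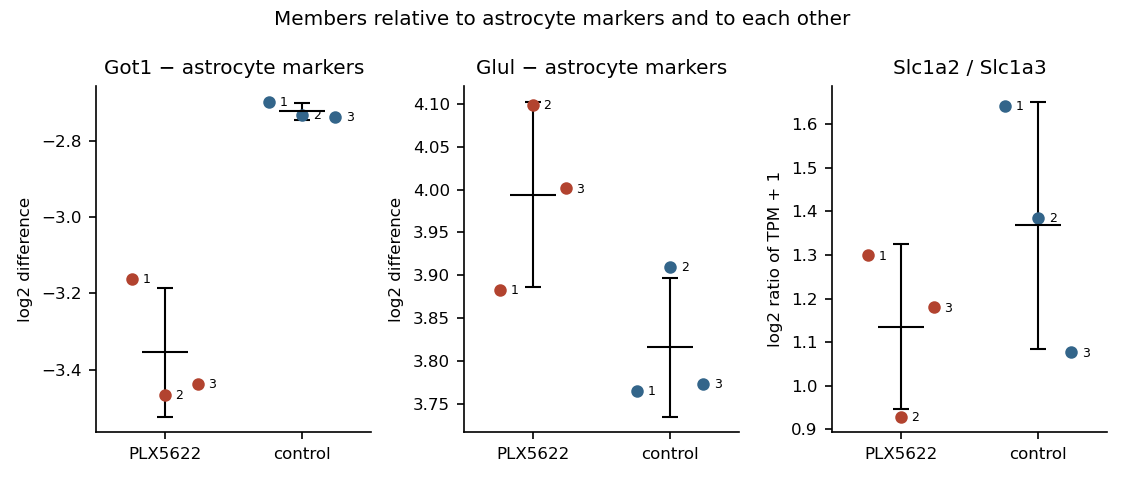
Got1 and Glul relative to the mean of 12 astrocyte markers (log2 difference), and the Slc1a2 to Slc1a3 ratio (log2 of TPM + 1), by library with mean and SD (n = 3), PLX5622 left and control right; the vertical axes do not start at 0. By label the diets separate in the Got1 panel, with control libraries close together, and overlap in the other 2. With PLX5622 3 and control 3 swapped, the diets overlap in the Got1 panel too.

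The difference between the labels also varied with transcript length. Over the 12797 tested genes with a length, longer transcripts had larger differences (Spearman rho 0.437 across genes, which are not independent replicates). The 3201 genes with the shortest exons, up to 2739 bases, had a median difference of −0.13, and the 3198 with the longest, from 6826 bases, one of 0.23. How far each library lay from the 6-library mean correlated across genes with log length at 0.305, 0.218 and 0.4 in the PLX5622 libraries 1, 2 and 3 and at −0.443, 0.238 and −0.423 in the control libraries 1, 2 and 3. Got1, with 2539 bases, is the shortest member, and Slc7a11 with 13922 bases and Slc1a2 with 13133 bases are the longest. After a loess correction of every library on length, the difference was 0.23 for Slc1a2 and 0.34 for Slc7a11, against 0.47 and 0.59 without it, and 0.58 for Glul, with 3323 bases, against 0.62. Corrected differences were 0.50 for Slc1a3, 0.38 for Glud1, 0.060 for Slc38a3 and −0.15 for Got1, and no gene was called.

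**Figure D4:**
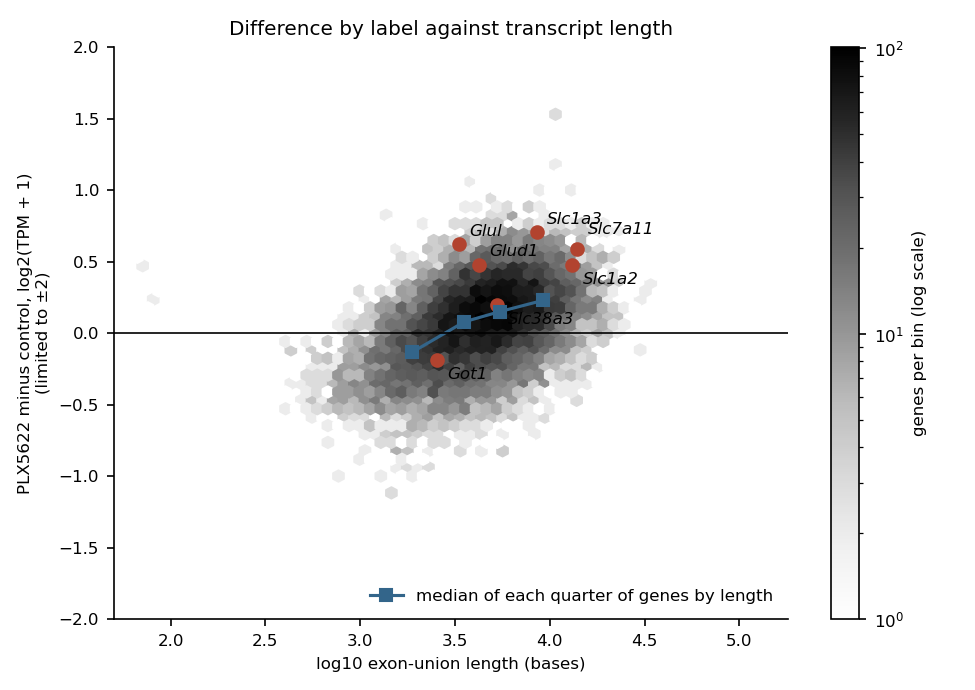
Difference by label (PLX5622 minus control, log2(TPM + 1)) against exon-union length (log10 bases) for all tested genes, as a density on a log colour scale, with the members as red points and the medians of 4 equal bins of genes by length as blue squares. Glul, Glud1 and Slc1a3 lie above the blue line, Slc38a3 near it and Got1 below it at the short end. Slc7a11 and Slc1a2 lie to the right of where the line ends, higher than its last square.

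Some genes had almost the same profile over the libraries as the main members. Closeness was the root mean square difference between profiles over the 6 libraries, each centred on its own mean of log2(TPM + 1). It was ranked among 7735 genes that averaged 10 TPM or more, with members and predicted or clone-based gene names left out. Nearest to Slc1a2 were Usp24, a deubiquitinase (0.0242), and the spliceosome genes Snrnp200 (0.0412) and Prpf8 (0.0497), with exons of 12350, 7819 and 7461 bases. Nearest to Slc1a3 were Yes1, a Src family kinase (0.0311), and Aldh6a1 and Mmut, which act in the breakdown of branched amino acids in mitochondria (0.0479 and 0.0491). Nearest to Glul were Ddx21, an RNA helicase (0.0259), Lgr4, a receptor for R-spondins (0.0306), and Gng12, a G protein subunit (0.0352). Of the member pairs with Slc1a2, Slc1a3 or Glul in them, Glul and Slc7a11 were closest, at 0.0368, against 0.194 for Glul and Slc1a2 and 0.228 for Slc1a2 and Slc1a3.

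Sequences are shown for 3 promoters: those of Glul and Slc7a11, the closest of these pairs, and that of Got1, which differed in the other direction. They are the 250 bases before the start site that RefSeq gives in build GRCm38.p6, 5′ to 3′ on the gene's strand. Capitals mark TGATGNAA on either strand, the core of the amino acid response element bound by Atf4, for which Slc7a11 is a textbook target.
Glul, chr1:153899679-153899928, plus strand: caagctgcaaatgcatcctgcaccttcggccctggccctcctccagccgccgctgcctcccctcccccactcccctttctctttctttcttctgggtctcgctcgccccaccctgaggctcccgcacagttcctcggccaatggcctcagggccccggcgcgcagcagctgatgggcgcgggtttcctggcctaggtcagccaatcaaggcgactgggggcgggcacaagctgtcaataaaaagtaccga
Slc7a11, chr3:50443614-50443863, minus strand: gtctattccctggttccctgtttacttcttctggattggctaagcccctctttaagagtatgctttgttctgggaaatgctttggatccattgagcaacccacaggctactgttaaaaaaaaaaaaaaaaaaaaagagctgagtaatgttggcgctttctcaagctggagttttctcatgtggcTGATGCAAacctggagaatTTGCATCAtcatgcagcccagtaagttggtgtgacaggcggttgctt
Got1, chr19:43524606-43524855, minus strand: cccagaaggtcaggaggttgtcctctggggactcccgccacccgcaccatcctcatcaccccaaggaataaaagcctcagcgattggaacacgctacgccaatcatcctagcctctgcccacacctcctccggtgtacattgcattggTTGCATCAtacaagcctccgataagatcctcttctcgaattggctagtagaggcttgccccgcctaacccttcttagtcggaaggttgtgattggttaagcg
Slc7a11 has 2 matches in opposite orientation, Got1 has 1 and Glul has none. Of 32851 promoter windows of this length, 3.45% hold at least 1 match and 0.0396% hold 2 or more. A second motif, TGANNNNGC on either strand, the core of the antioxidant response element, matched 2 times in the Slc7a11 window, 1 of them overlapping a TGATGNAA match, 3 times in that of Slc1a3 and not in those of Glul and Got1, beside 35.2% of all windows with a match. Promoter windows were found for 6 of the 7 members. A match describes the letters only, and Glul and Slc7a11, which have close profiles, do not share either motif in these windows.

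The authors' deposited fold changes give a different picture of the members from the labels. In the authors' deposited table, of the 7 members, 4 were positive and 3 negative, with a median of 0.076 beside −0.017 for all 20062 genes, and none had p under 0.05, beside 0.847% of its genes (0.0698% after adjustment). The authors' deposited table gives Slc7a11 0.18 (SE 0.26), Glul 0.15 (SE 0.26), Slc1a3 0.12 (SE 0.30) and Glud1 0.076 (SE 0.22). The authors' deposited table gives Slc1a2 −0.13 (SE 0.24, 95% interval −0.60 to 0.33), Slc38a3 −0.071 (SE 0.16) and Got1 −0.038 (SE 0.19), all with an adjusted p of 1.00. Its numerator is not named, and its sign is read here as PLX5622 over control. For Slc1a2 the sign is thus opposite to the 0.46 that the log2 ratio of mean TPM gives by label. With PLX5622 3 and control 3 swapped between the diets, that ratio is −0.10 for Slc1a2, 0.14 for Slc1a3, 0.18 for Glul, 0.21 for Slc7a11, 0.11 for Glud1, −0.022 for Slc38a3 and 0.0096 for Got1, each within 0.05 of the authors' deposited value. Over 13191 genes whose baseMean reached 50, the fold changes of the authors' deposited table correlated with the log2 ratio at r = 0.528 by label and at r = 0.995 with the 2 swapped, a description across genes. Whether 2 headings are exchanged was not tested, and the member differences by label rest on the headings.

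Without both libraries, limma by label called 0 members, 2 genes higher and 12 lower. The member differences were then 0.70 for Slc1a3, 0.62 for Glul, 0.61 for Slc7a11, 0.46 for Glud1, 0.30 for Slc1a2, 0.14 for Slc38a3 and −0.13 for Got1 (log2, n = 2), with the same signs as with all libraries.

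**Figure D5:**
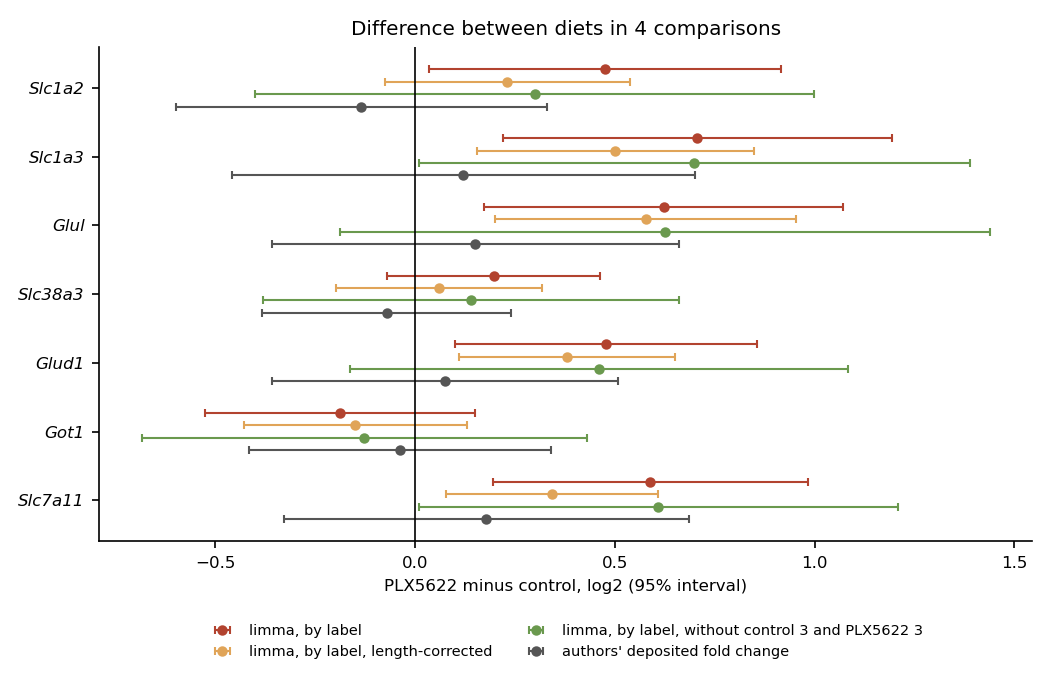
Difference between diets for each member with its 95% interval, on the log2 scale: limma by label, limma after length correction, limma leaving out PLX5622 3 and control 3, and the authors' deposited fold change. Slc1a2, Slc1a3, Glul, Slc38a3, Glud1 and Slc7a11 are positive in all 3 fits by label, and all authors' intervals include 0.

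None of the 30 tested genes in the 6 lists of related genes passed limma's adjusted threshold by label, beside 0% of all genes. Of all genes tested, 61.1% had a positive difference, with a median of 0.089. Without the library labelled control 2, limma called 7 of the 30 higher and 1 lower. That was beside 2600 higher and 1154 lower among all 13081 genes, so the calls named below are not particular to these lists. Of the other Slc1 transporters 4 of 5 were tested, 2 positive and 2 negative, with a median difference of 0.028. Slc1a4, a carrier of neutral amino acids such as serine, had 132 ± 7.90 TPM on PLX5622 and 95.4 ± 24.2 TPM on control diet (SD, n = 3). Its log2 difference was 0.49 ± 0.18, close to that of Slc1a2. Slc1a1, the glutamate transporter of neurons, differed by −0.13 ± 0.24 and Slc1a6, that of Purkinje cells, by −0.49 ± 0.14 (log2, SE) at a level of 2.76 ± 0.395 TPM on PLX5622 and 4.27 ± 0.271 TPM on control diet. Without the library labelled control 2, Slc1a4 and Slc1a6 were called by limma (adjusted p = 0.00444 and 0.0401), while Slc1a4 differed by 0.31 without control 1.

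Of the other glutamine and cystine transporters 6 of 7 were tested, 4 positive, with a median of 0.045. Slc3a2, the heavy chain that pairs with Slc7a11, had 219 ± 9.57 TPM on PLX5622 and 213 ± 11.2 TPM on control diet, a log2 difference of 0.041 ± 0.11 (SE), which turned negative after size-factor scaling (−0.048) or length correction (−0.021). Slc7a5, which shares that heavy chain, differed by 0.049 ± 0.12 and turned likewise (−0.038 and −0.024). Slc38a1, a glutamine importer of neurons, differed by 0.21 ± 0.14, and by −0.046 after length correction.

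Of the other enzymes 8 of 9 were tested, 4 of them positive, with a median of −0.11. Gpt2, the mitochondrial alanine aminotransferase, had 84.0, 125 and 96.5 TPM in the PLX5622 libraries and 44.5, 74.8 and 67.0 TPM in the control libraries. The diets did not overlap, and the log2 difference of 0.72 ± 0.21 was close to that of Slc1a3 (limma adjusted p = 0.205). Its cytosolic counterpart Gpt differed by 0.015 ± 0.11, a value that changed sign with size factors, and Got2, the mitochondrial aspartate aminotransferase, by −0.24 ± 0.17, the sign of Got1. Without the library labelled control 2, limma called Gpt2 (0.87, adjusted p = 0.00625), beside 2600 of all 13081 genes called higher.

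The mitochondrial carriers had 1 positive gene of 5, with a median of −0.12. Slc25a18, the glutamate carrier of astrocytes, had 1459.5, 1424 and 1378 TPM in the PLX5622 libraries and 779, 1336 and 1084 TPM in the control libraries, all PLX5622 libraries above the controls, a log2 difference of 0.45 ± 0.19 (SE; limma adjusted p = 0.212), and one of 0.24 without the library labelled control 1. Its paralogue Slc25a22 differed by −0.31 ± 0.20 and Slc25a11, the 2-oxoglutarate carrier, by −0.12 ± 0.11. Of the vesicular glutamate transporters, which load glutamate into synaptic vesicles of neurons, 2 of 3 were tested and both were negative, with a median of −0.44. Slc17a7 had 176 ± 50.7 TPM on PLX5622 and 252 ± 39.7 TPM on control diet (−0.54 ± 0.20, log2, SE), and Slc17a6 differed by −0.34 ± 0.18.

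Of the astrocyte genes of glutamate sensing and ion support 4 of 5 were positive, with a median of 0.30. Atp1b2, a subunit of a sodium pump, differed by 0.30 ± 0.14, and Kcnj10, the potassium channel Kir4.1, by 0.66 ± 0.23 (log2, SE), or by 0.43 without the library labelled control 1. Without the library labelled control 2, limma called Kcnj10, Atp1b2 and Slc25a18 (adjusted p = 0.002, 0.0457 and 0.00766), beside 2600 of all 13081 genes called higher. In the authors' deposited table the medians of the 6 lists lay between −0.13 and 0.033, and none of their genes had p under 0.05.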

How the data were processed

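Ribosome-bound mRNA of 6 Gfap-Cre; RiboTag mouse brain samples was sequenced from non-stranded libraries, so reads of Slc1a2 and Glul cannot be told from those of genes that overlap them on the other strand. The submitters' processing notes name DESeq2 1.32.0, STAR 2.7.10a, R 4.1.0, Subread 2.0.1, featureCounts and mm39. The annotation and filters behind the files were not stated in the sources used here. The authors deposited TPM per library. TPM keeps no depth, so the precision of single values cannot be given. A second table holds, per the file headers, the authors' baseMean (a signal, the mean normalized count), log2 fold changes with SE, a test score, and raw and adjusted p-values. Neither its libraries nor its numerator are named.

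Here limma 3.58.1 in R 4.3.3 was fitted to log2(TPM + 1), which understates folds of low genes, with a mean-variance trend, on the 13084 genes averaging 1 TPM or more. P-values were two-sided, adjusted by Benjamini-Hochberg over all of these, with a threshold of 0.05; they measure the spread between libraries labelled biological replicates. Ratios were tested by exact permutation (scipy 1.17.1). Exon-union lengths came from GENCODE M21 (GRCm38), for 97.8% of tested genes, with a loess span of 0.3. The limma step was tested on simulated data, with independent values and 200 changed genes. It recovered 0% of them at a log2 change of 0.5, 68% at 1 and 98% at 2. A gene that was not called may thus still differ by about 0.5. Genes named were all members, up to 3 genes of the highest mean TPM in each related list, and the 3 nearest profiles to Slc1a2, Slc1a3 and Glul; results for 2 other genes are not reported here, though list counts and adjustments include them. The members, lists and tests were chosen with earlier results of these data known. Alternatives were another pseudocount, other filters and scaling, no trend, a replicate block, length correction, leaving out libraries, and leaving Gfap and Apoe out of the astrocyte markers.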

Additional observations from a re-analysis of the deposited data

How the results depend on the processing

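Counts of calls depended on single libraries. Leaving out 1 library at a time, limma called between 0 and 2600 genes higher, between 0 and 1154 lower, between 0 and 5 members and between 0 and 8 related genes; the highest values came without the library labelled control 2, and 1 higher and 35 lower genes without that labelled PLX5622 1. Leaving out PLX5622 3 and control 3 together gave 2 higher and 12 lower genes. A pseudocount of 0.1, no filter, a minimum of 5 TPM, size factors, no trend, the replicate block and length correction each called 0 genes (limma; 2399 to 3187 at an unadjusted p under 0.05). Differences by label of the 7 members had the same sign in all 14 alternatives, and that of Slc1a2 ranged from 0.23 to 0.67. Swapping PLX5622 3 and control 3 between the diets was not among them. That swap turned the log2 ratio of mean TPM for Slc1a2 (0.46 to −0.10), Slc38a3 (0.20 to −0.022) and Got1 (−0.20 to 0.0096). It lowered the ratio without a change of sign for Slc1a3 (0.67 to 0.14), Glul (0.60 to 0.18), Slc7a11 (0.58 to 0.21) and Glud1 (0.45 to 0.11). Size factors and length correction brought the median of all genes to 0.011 from 0.089, and that of the members to 0.39 and 0.34.

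Relative to astrocyte markers, the difference turned to −0.17 for Slc1a2 and −0.011 for Glud1 when PLX5622 3 and control 3 were left out together; leaving out 1 library, it ranged from −0.089 to 0.13 for Slc1a2 and from −0.0033 to 0.087 for Glud1, and that of the Glul to Slc1a2 ratio from −0.0016 to 0.25. Among related genes, size factors turned Slc7a5 to −0.038, Slc3a2 to −0.048 and Gpt to −0.073. Length correction turned Slc38a1 to −0.046, Slc7a5 to −0.024 and Slc3a2 to −0.021. Leaving out PLX5622 3 and control 3 turned Gpt to −0.031. Leaving out 1 library, Slc1a1 ranged from −0.34 to 0.11, Slc7a5 from −0.013 to 0.11 and Gpt from −0.021 to 0.059. The cause was not tested.

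The diets share replicate numbers, but same-numbered libraries did not deviate together (r = −0.033, −0.272 and −0.147 across genes for numbers 1, 2 and 3). No library correlated best with its own number. The replicate block called 0 genes by limma, with 2567 at an unadjusted p under 0.05. Depth is unknown from TPM.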

Other observations

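Among the related genes that the naming rule did not take, 3 were chosen after their values were seen. Grm3, a metabotropic glutamate receptor that astrocytes express, had 145, 193 and 204 TPM in the PLX5622 libraries and 73.1, 147 and 103 TPM in the control libraries, a log2 difference of 0.79 ± 0.24 (SE; limma adjusted p = 0.205). Only the library labelled control 2 overlapped with those labelled PLX5622, by a narrow margin, and the authors' deposited table gives Grm3 0.042. Slc38a2, a glutamine importer regulated by amino acid supply, had 19.1, 25.4 and 24.9 TPM on PLX5622 and 11.9, 18.3 and 15.7 TPM on control diet (0.58 ± 0.18, limma adjusted p = 0.205). Slc7a8, a carrier of neutral amino acids, had 10.5, 5.43 and 6.15 TPM on PLX5622 and 11.0, 11.7 and 10.3 TPM on control diet (−0.56 ± 0.21, limma adjusted p = 0.205). Without the library labelled control 2, limma called Grm3 (1.04, adjusted p = 0.0024) and Slc38a2 (0.71, adjusted p = 0.00969) but not Slc7a8 (−0.52, adjusted p = 0.0828). Among all 13081 genes that step called 2600 higher and 1154 lower. Without that labelled control 1 it called none of the 3 (0.54, 0.42 and −0.56 on the log2 scale, adjusted p between 0.381 and 0.388).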
